A study of Mus musculus with 6 samples.

Results

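14-3-3 proteins are small adaptor proteins that work as dimers and bind partner proteins at phosphorylated serine or threonine residues. Binding can hold a partner in the cytoplasm, cover one of its functional sites or change its activity. In oocytes held at prophase of meiosis I they are known for keeping the phosphatase CDC25B away from its substrate, the kinase CDK1, until the docking phosphate is removed at the resumption of meiosis. The mouse has 7 genes for these proteins, named for the isoforms beta (Ywhab), epsilon (Ywhae), gamma (Ywhag), eta (Ywhah), theta (Ywhaq), zeta (Ywhaz) and sigma (Sfn). All 7 were found by symbol among the 24255 genes of the deposited table, 1 row each, and their transcript levels are described here in oocytes with and without the RNA-binding protein LSM14B.

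The 6 libraries came from fully-grown oocytes (FGOs) at the germinal vesicle stage, 3 labelled WT and 3 labelled Lsm14b-KO, with 20 pooled oocytes behind each. Lsm14b-KO females were homozygous for Lsm14b tm1a(KOMP)Mbp, a reporter-tagged insertion present in every cell of the animal, on a C57BL/6J background. The WT females are not described further than that name. Females of both groups received 5 IU of PMSG, a hormone that makes follicles grow, and oocytes were taken 46 h later. The age of these females was not given in the sources used here, and neither was whether replicates came from different animals, so that p-values measure only the spread between these libraries, which may be technical. Levels are FPKM, fragments counted per length of transcript and per size of library, a unit that corrects for transcript length and so allows levels of different genes to be set side by side. Because 20 oocytes were pooled, less of a transcript per oocyte and fewer oocytes carrying it cannot be told apart. FPKM is relative to the fragments of a library, so it does not give the amount of a transcript per oocyte.

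Lsm14b itself was at 2.77, 3.98 and 1.72 FPKM in WT replicates 1, 2 and 3 and at 0, 0 and 0.102 FPKM in the corresponding Lsm14b-KO libraries, as the labels say. Lsm14b-KO replicate 1 stood closer to the WT libraries than the other two Lsm14b-KO libraries did: its correlation with them over the tested genes was 0.952 to 0.954, against 0.867 to 0.890 for replicate 2 and 0.917 to 0.929 for replicate 3. The FPKM of all genes summed to 1141324 to 1244182 in WT libraries and to 1029728, 564671 and 676656 in Lsm14b-KO replicates 1, 2 and 3. Relative depth, read from the smallest steps of low values with WT replicate 1 set to 1, was 1 to 1.14 in WT and 1.33, 1.95 and 2.17 in Lsm14b-KO. It reflects the divisor used for each library in the deposited FPKM, which need not be the number of fragments sequenced. That divisor also enters the FPKM sums, so the depth and the sums are not separate features. All 16 oocyte markers reached 1 FPKM, and they summed to 58240 to 69620 FPKM in WT and 35630 to 84920 FPKM in Lsm14b-KO. Of 16 cumulus and granulosa cell markers 3 did, Cyp19a1, Fshr and Inha, and 6 were at 0 throughout (Amh, Cyp11a1, Foxl2, Inhba, Inhbb and Lhcgr). The list summed to 9.91 to 13.6 FPKM in WT and 6.17 to 10.3 FPKM in Lsm14b-KO. These 3 markers did not move together. In replicates 1, 2 and 3, Cyp19a1 was at 11.5, 8.26 and 10.5 FPKM in WT and at 5.47, 3.005 and 5.76 FPKM in Lsm14b-KO. Fshr was higher in Lsm14b-KO (2.075, 1.91 and 1.82 FPKM) than in WT (1.68, 0.526 and 0.349 FPKM). Inha was at 0, 0.185 and 0.204 FPKM in WT and at 0.158, 0.326 and 1.06 FPKM in Lsm14b-KO. The 6 red blood cell markers in the table were at 0 in every library. The part of the depth, of the unequal FPKM sums and of the marker differences in the results below was not tested.

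The coding sequences show how alike the members are, and so whether reads of one could have been counted for another. The 60 bases where the other members together are most like Ywhaz, sought in steps of whole codons, lie near the start of each reading frame. They span coding positions 22 to 81 of Ywhaz, Ywhaq and Sfn. In Ywhae, Ywhag and Ywhah they span 25 to 84, and in Ywhab 28 to 87. They are shown here from the GENCODE vM21 transcripts, 5′ to 3′ in the sense of the mRNA, with capitals at bases that differ from Ywhaz.
Ywhaz: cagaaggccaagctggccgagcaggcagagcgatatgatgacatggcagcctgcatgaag
Ywhaq: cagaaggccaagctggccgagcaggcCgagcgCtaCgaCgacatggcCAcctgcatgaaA
Sfn: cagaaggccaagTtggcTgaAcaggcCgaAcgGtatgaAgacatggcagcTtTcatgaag
Ywhab: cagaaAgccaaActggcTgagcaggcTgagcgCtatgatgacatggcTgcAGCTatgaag
Ywhag: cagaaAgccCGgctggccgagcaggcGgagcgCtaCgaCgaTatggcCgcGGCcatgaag
Ywhae: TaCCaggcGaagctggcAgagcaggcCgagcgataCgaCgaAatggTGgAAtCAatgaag
Ywhah: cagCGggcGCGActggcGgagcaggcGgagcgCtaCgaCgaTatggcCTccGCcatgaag
Even in this stretch Ywhaq differed from Ywhaz at 7 bases, Sfn at 9, Ywhab at 10, Ywhag at 12, Ywhae at 15 and Ywhah at 16. Over the whole reading frame the closest pair was Ywhag and Ywhah, with 79.0% of aligned bases identical, and Ywhae was the most distant member, at 65.3% to 67.3% identity with the others.

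No stretch of 100 bases was shared exactly between any 2 members' transcripts. Ywhab, Ywhae and Ywhag also shared none with any other annotated transcript. In contrast, 24.2% of the 100-base stretches of Ywhaq, 17.1% of Ywhaz, 6.91% of Ywhah and 4.03% of Sfn occur in other annotated transcripts. Near-identical copies, with at least 95% identity over at least 200 bases, were Gm12428 for Ywhah, Gm4202 for Ywhaz and Gm7850 for Sfn, all processed pseudogenes. Ywhaq had 7: Ywhaq-ps2, Ywhaq-ps3, Gm21178, Gm2423, Gm10608, Gm38040 and a stretch of 407 bases that is 100% identical in an annotated Cdk5rap2 transcript. Of these copies Cdk5rap2 alone has its symbol in the deposited table. As far as copies are concerned, the levels of Ywhaq, Ywhaz, Ywhah and Sfn are therefore less certain than those of the other members. Their fragments could be shared with a copy in a way that depends on how the authors counted them.

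In GENCODE vM21 on GRCm38, the assembly also called mm10, Ywhab lies at chr2:163994960-164018588 on the plus strand with 6 exons and Ywhae at chr11:75732869-75765845 on the plus strand with 6 exons. Ywhag lies at chr5:135908409-135934616 on the minus strand and Ywhah at chr5:33018816-33027966 on the plus strand, with 2 exons each. Ywhaq lies at chr12:21390071-21417637 with 5 exons, Ywhaz at chr15:36770770-36796929 with 7 exons and Sfn at chr4:133600556-133602168 with 1 exon, all on the minus strand. Ywhae overlaps the lincRNA gene Gm26836 and Ywhaq the antisense gene Gm4419, both on the opposite strand. The strandedness of the libraries is not given in the sources used here, and without strand the reads of such partners cannot be told apart.

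Ywhae was the most abundant 14-3-3 transcript of FGOs in all 6 libraries, followed by Ywhaz. In WT FGOs Ywhae stood at 165 ± 35.6 FPKM (SD, n = 3), Ywhaz at 41.1 ± 2.80, Ywhaq at 11.8 ± 1.34, Ywhah at 10.2 ± 0.812, Ywhag at 3.00 ± 0.603 and Ywhab at 2.02 ± 0.628, and Sfn stayed below 1 FPKM. The ranges of Ywhaq and Ywhah overlapped in WT, as did those of Ywhag and Ywhab, so the order within these pairs was not larger than the spread between libraries. In Lsm14b-KO FGOs the order of the means was the same, at 430 ± 203, 76.5 ± 36.1, 12.3 ± 1.34, 10.9 ± 1.52, 8.04 ± 1.89 and 4.54 ± 1.92 FPKM (SD, n = 3). Ywhah and Ywhaq overlapped there too, and the highest Ywhab value lay within the range of Ywhag. Ywhag came closer to Ywhah in Lsm14b-KO than in WT, although every Ywhag value remained below every Ywhah value.

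**Figure D1:**
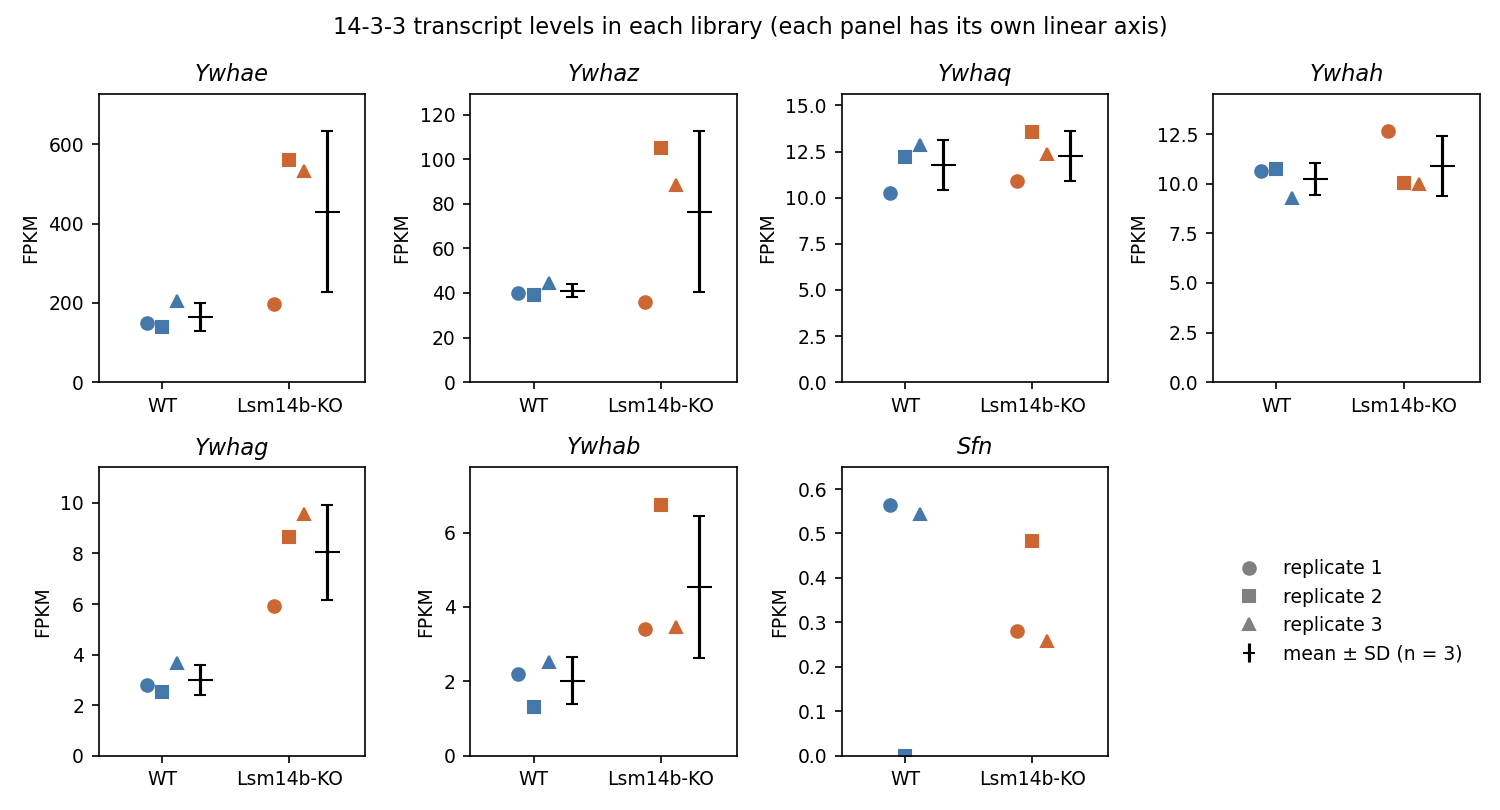
FPKM of each 14-3-3 gene in each library, one panel per gene with its own linear y axis from 0. Points are libraries, shaped by replicate number, and black bars are the mean ± SD of 3 libraries (omitted for Sfn, which is listed at 0 in WT replicate 2). All 3 Lsm14b-KO points lie above all WT points for Ywhag and Ywhab, while Ywhae and Ywhaz are high in Lsm14b-KO replicates 2 and 3 and near WT in replicate 1.

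The question for each member was whether its transcript differed between Lsm14b-KO and WT FGOs. Values below are given in the order of replicates 1, 2 and 3. All members but Sfn (6 of 7) had at least 1 FPKM in every library and were tested with limma on log2(FPKM + 1), a two-sided test fitted on 6398 genes with Benjamini-Hochberg adjustment over all of them and a threshold of 0.05. Ywhag was the one member that rose (1 of 6), and none fell. In the background, 21.6% of tested genes passed the threshold in either direction and 6.38% were higher in Lsm14b-KO. The fitted difference was above 0 for all 6 members, with a median of 0.79 on the log2(FPKM + 1) scale, against a median of -0.08 over all tested genes, but Ywhah and Ywhaq were just below 0 in some fits with 1 library left out. For 2 of 6 members (Ywhag and Ywhab) all Lsm14b-KO values exceeded all WT values, which held for 19.1% of tested genes. Fold changes on this log scale understate the change of low genes.

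Ywhag, the gamma isoform, which tends to pair with other isoforms, was at 2.80, 2.52 and 3.68 FPKM in WT and at 5.93, 8.64 and 9.56 FPKM in Lsm14b-KO. The groups did not overlap, and every Lsm14b-KO library was above the highest WT library. The mean was 2.68 times as high, and the fitted log2 fold change was 1.16 (SE 0.25, 95% interval 0.60 to 1.73, limma adjusted p = 0.0167). The call was lost without WT replicate 1 (1.13, limma adjusted p = 0.0855), WT replicate 2 (1.08, 0.0876), WT replicate 3 (1.28, 0.0525) or Lsm14b-KO replicate 3 (1.04, 0.0837). It was kept without Lsm14b-KO replicate 1 (1.34, 0.00309) and without Lsm14b-KO replicate 2 (1.11, 0.0409), and it passed in 12 of 16 alternatives.

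Ywhab, the beta isoform, the least abundant of the members tested, was at 2.21, 1.32 and 2.53 FPKM in WT and at 3.40, 6.75 and 3.46 FPKM in Lsm14b-KO. Lsm14b-KO replicate 2 was well above the other libraries, and the groups did not overlap. The mean was 2.25 times as high and the log2 fold change 0.84 (SE 0.29, 95% interval 0.17 to 1.51), which did not pass the threshold (limma adjusted p = 0.0713).

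Ywhae, the epsilon isoform, which forms mainly dimers with other isoforms, was at 149.8, 140 and 206 FPKM in WT and at 196, 561 and 533 FPKM in Lsm14b-KO. Lsm14b-KO replicates 2 and 3 were far above all WT libraries, whereas replicate 1 lay inside the WT range. The mean was 2.60 times as high, but the log2 fold change of 1.25 (SE 0.45, 95% interval 0.20 to 2.29) did not pass (limma adjusted p = 0.0820). Ranked among all genes of its library, Ywhae stood at 551, 570 and 461 in WT and at 434, 149 and 178 in Lsm14b-KO, so it stood highest in the order of genes in the same 2 libraries. Scaling a whole library leaves this order as it is.

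Ywhaz, the zeta isoform, had the same pattern over libraries. It was at 39.9, 39.0 and 44.3 FPKM in WT and at 35.9, 105 and 88.4 FPKM in Lsm14b-KO. Replicate 1 of Lsm14b-KO was the lowest of all 6 libraries and the other two were the highest. The mean was 1.86 times as high, and the log2 fold change of 0.75 (SE 0.42, 95% interval -0.22 to 1.71) did not pass (limma adjusted p = 0.214). It was 0.45 without Lsm14b-KO replicate 2 (limma adjusted p = 0.454) and 1.21 without Lsm14b-KO replicate 1, where it passed (0.0031).

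Ywhah, the eta isoform and the member closest to Ywhag in sequence, was at 10.6, 10.8 and 9.30 FPKM in WT and at 12.6, 10.1 and 9.97 FPKM in Lsm14b-KO. The groups overlapped, and the log2 fold change was 0.08 (SE 0.23, 95% interval -0.45 to 0.60, limma adjusted p = 0.813). Ywhaq, the theta isoform, was at 10.3, 12.2 and 12.8 FPKM in WT and at 10.9, 13.6 and 12.4 FPKM in Lsm14b-KO. The groups overlapped here as well, with a log2 fold change of 0.06 (SE 0.23, 95% interval -0.48 to 0.59, limma adjusted p = 0.867). The intervals leave room for a change of up to about 0.6 in the log2 of either gene in the values as deposited.

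Sfn, the sigma isoform, known mainly from epithelial cells, was at 0.565, 0 and 0.545 FPKM in WT and at 0.281, 0.483 and 0.258 FPKM in Lsm14b-KO. These values were too low for the filter of 1 FPKM, and the groups overlapped. The exact permutation test of the 6 log2(FPKM + 1) values gave a two-sided p of 1, where the smallest p that 3 against 3 libraries can give is 0.10.

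Leaving out Lsm14b-KO replicate 1 changed the count of members most. Without it 4 of 6 members rose: Ywhae by 1.74 (limma adjusted p = 0.00155), Ywhag by 1.34 (0.00309), Ywhaz by 1.21 (0.0031) and Ywhab by 0.98 (0.0386) on the log2 scale. The share of all tested genes called higher also grew, to 18.0%. Ywhah and Ywhaq did not pass in that fit, at -0.03 (limma adjusted p = 0.914) and 0.13 (0.593).

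The scaling of the libraries moved every member. When the FPKM of every library were set to an equal sum, which turns them into TPM, the median of all tested genes moved up by 0.475 on the log2 scale, and 63.2% of called genes were higher in Lsm14b-KO instead of 29.5%. Under TPM 2 of 6 members rose, Ywhae by 1.94 (limma adjusted p = 0.0475) and Ywhag by 1.76 (0.0228), beside 13.0% of all tested genes. Measured from the all-gene median of each fit, Ywhag stood 1.24 higher as deposited and 1.36 higher under TPM, and Ywhae 1.32 and 1.54 higher. The fitted values of the members that did not pass also moved under TPM, to 1.43 for Ywhaz (limma adjusted p = 0.0887), 1.39 for Ywhab (0.0506), 0.71 for Ywhah (95% interval 0.14 to 1.29, 0.0711) and 0.70 for Ywhaq (95% interval -0.07 to 1.47, 0.139). Ywhah was 0.15 above that median as deposited and 0.31 above it under TPM, and Ywhaq 0.13 and 0.30. Quantile normalization moved the median by 0.144, raised the share of calls that were higher to 42.4% and gave 1.95 for Ywhae (limma adjusted p = 0.0497), 1.34 for Ywhag (0.0164), 1.31 for Ywhaz (0.105), 0.37 for Ywhah (0.247) and 0.35 for Ywhaq (0.305). A correction for transcript length and GC content moved it by 0.166 with 44.3% of calls higher, and gave 1.42 for Ywhae (limma adjusted p = 0.0522), 1.03 for Ywhag (0.0167), 0.24 for Ywhah (0.413) and 0.08 for Ywhaq (0.793). Ywhag passed under all 4 scalings and Ywhae under 2.

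**Figure D2:**
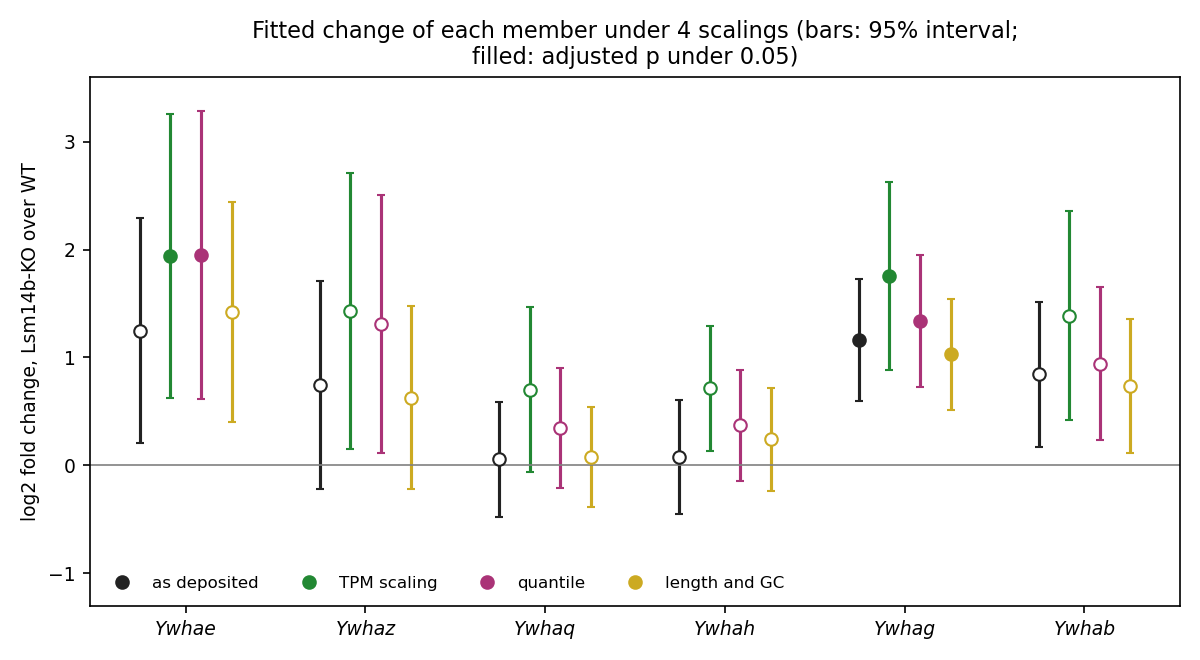
Fitted log2 fold change (Lsm14b-KO over WT) of the 6 tested members under 4 scalings of the libraries, with bars for the 95% interval and filled circles where the limma adjusted p was under 0.05. Ywhag is filled under all 4 scalings and Ywhae under TPM scaling and quantile normalization, and the intervals of Ywhaq and Ywhah as deposited are centred near 0.

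Ratios between members within a library do not change when the whole library is multiplied by the same factor, as under TPM. Quantile normalization and the length and GC correction can change them, and the ratios given here are from the values as deposited. The ratio of Ywhag to Ywhaq was 0.273, 0.207 and 0.287 in WT and 0.545, 0.637 and 0.774 in Lsm14b-KO. The ratio of Ywhag to its closest relative Ywhah was 0.263, 0.235 and 0.396 in WT and 0.469, 0.859 and 0.959 in Lsm14b-KO. The ratio of Ywhae to Ywhaq was 14.6, 11.5 and 16.0 in WT and 18.0, 41.4 and 43.2 in Lsm14b-KO. In each of these 3 ratios every Lsm14b-KO library exceeded every WT library, by 1.35, 1.33 and 1.19 in the mean log2 ratio, including replicate 1. The other two ratios without overlap were Ywhab to Ywhaq (1.08) and Ywhae to Ywhaz (0.50). For each of these 5 of the 15 pairs the two-sided exact permutation p was 0.10, the smallest that can be reached. The Benjamini-Hochberg adjusted p was 0.30 over the 15 pairs, so none passes 0.05. The pairs reuse the same 6 members, and Ywhaq, whose level is less certain, is the divisor for Ywhag, Ywhae and Ywhab. Among single tested genes 19.1% had all Lsm14b-KO values above all WT values. The share among pairs of other genes was not determined, and the ratios were chosen after the data were seen. The mean log2 ratio of Ywhah to Ywhaq differed by 0.02 (exact permutation p = 0.90), and that of Ywhae to Ywhag by -0.16 (exact permutation p = 0.90).

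Summed over the family, the 14-3-3 transcripts stood at 216, 206 and 279 FPKM in WT and at 265, 706 and 657 FPKM in Lsm14b-KO. As a share of all FPKM of a library this was 0.0174%, 0.0176% and 0.0245% in WT and 0.0257%, 0.125% and 0.0972% in Lsm14b-KO. Every Lsm14b-KO share exceeded every WT share, narrowly so for replicate 1. The share divides by the FPKM sum of the library, which was lowest in Lsm14b-KO replicates 2 and 3 (564671 and 676656). Under TPM, which divides by the same sum, the median of all tested genes also moved up, by 0.475 on the log2 scale. How many other genes have shares without overlap was not determined, so this is not shown to be particular to the family. Without Ywhae the sum was 66.4, 65.9 and 73.2 FPKM in WT and 69.0, 145 and 124 FPKM in Lsm14b-KO.

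Ywhae made up a larger part of the family's transcript pool in each Lsm14b-KO library than in any WT library. Its share of the summed 14-3-3 FPKM was 69.3%, 68.1% and 73.8% in WT and 74.0%, 79.5% and 81.1% in Lsm14b-KO, means of 70.4 ± 3.02% and 78.2 ± 3.76% (SD, n = 3). Lsm14b-KO replicate 1 was only just above WT replicate 3, and no test was run on the shares. The share of Ywhaz was 18.5%, 18.9% and 15.9% in WT and 13.5%, 14.9% and 13.4% in Lsm14b-KO, and that of Ywhaq was 4.75%, 5.92% and 4.60% in WT and 4.10%, 1.92% and 1.88% in Lsm14b-KO. For both, every Lsm14b-KO share lay below every WT share. The shares of Ywhah, Ywhag and Ywhab overlapped between the groups. Shares of one pool sum to a fixed total, so that a higher share of one member lowers the others.

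**Figure D3:**
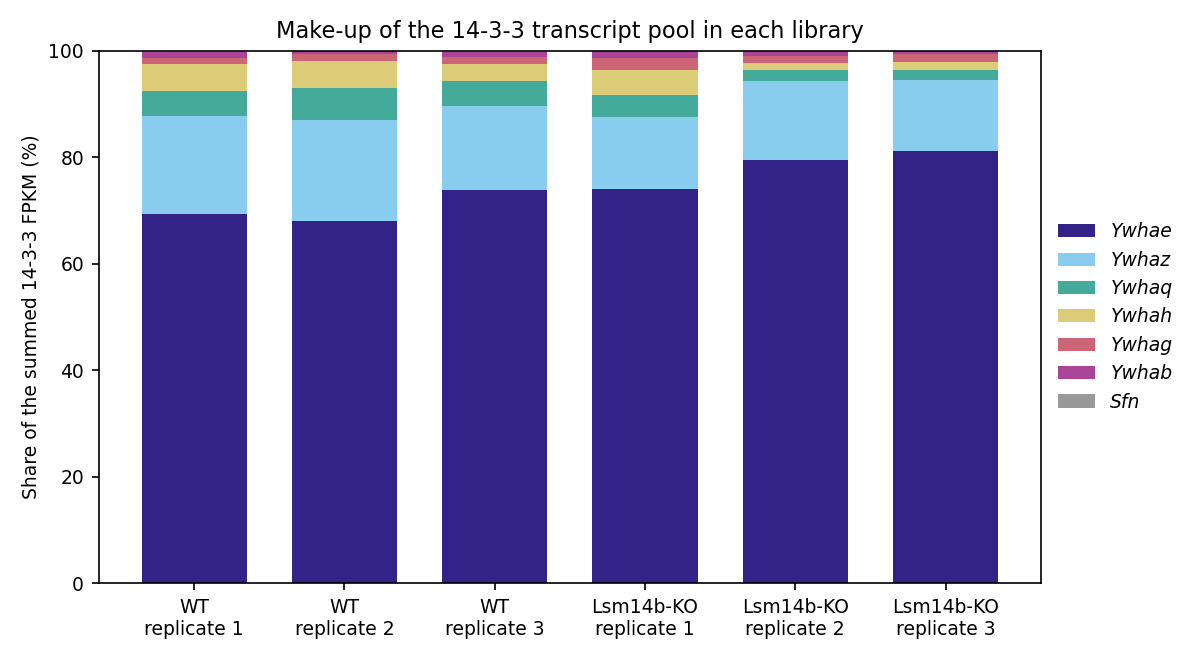
Share of the summed 14-3-3 FPKM, in percent, taken by each member in each of the 6 libraries, stacked to the full pool. Ywhae takes 68.1% to 73.8% of the pool in WT libraries and 74.0% to 81.1% in Lsm14b-KO libraries, and the bands of Ywhaq and Ywhah are thinnest in Lsm14b-KO replicates 2 and 3.

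The genes whose pattern over the 6 libraries was most like each member were found among 2559 or 2560 other tested genes with a mean of at least 5 FPKM, by the root mean square difference of log2(FPKM + 1) after centring. Nearest to Ywhag were Mllt3 (0.060), Msl3 (0.093) and Dnaja2 (0.097), and nearest to Ywhae were Rsl24d1 (0.070), Gyg (0.127) and Cfl1 (0.133). For Ywhaz they were 2810474O19Rik (0.061), Dlgap4 (0.062) and Cfap97 (0.086), and for Ywhab 3110043O21Rik (0.123), Kit (0.130) and Eif3l (0.147). Ywhah lay closest to D6Ertd474e (0.082), Kdm2b (0.086) and Pdlim7 (0.097), and Ywhaq to Speer4a (0.088), Dazap2 (0.090) and Ndufb11 (0.102). No member was among the 3 nearest genes of another member, but Ywhab, with a mean below 5 FPKM, was not among the candidates. The distances are a description over 6 libraries that all genes share.

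The last 150 bases of each member's transcript were searched for the letters of the poly(A) signals and of the cytoplasmic polyadenylation element, an element known for the control of translation in oocytes. Only the strand of the mRNA was read. AATAAA was found in 6 of the 7 members, all but Ywhae, and in 68.7% of the 5208 transcripts of tested genes. ATTAAA was found in Ywhae alone, against 25.7% of transcripts. TTTTAT or TTTTAAT was found in Ywhab and Ywhaq, against 26.8% of transcripts. A match says only that these letters are in the window.

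Around the family, a list of 50 genes was examined: 15 kinases that create docking phosphates, 5 catalytic subunits of phosphatases that remove them, 5 clients in the CDK1 switch and 25 other client proteins. All 50 were in the table, and 17 reached 1 FPKM in at least 1 library and were tested. Wee1 and Padi6 rose and none fell (2 of 17), against 21.6% of all tested genes called in either direction and 6.38% called higher. Under TPM 6 of 17 passed, all higher, beside 13.0% of all tested genes called higher. Without Lsm14b-KO replicate 1 the count was 8 of 17, where 45.3% of all tested genes were called in either direction, a share close to that of the list. Without any other single library it was 1 of 17, where the share of all tested genes was 6.19%, 6.21% and 7.22% without WT replicates 1, 2 and 3, and 13.5% and 4.92% when Lsm14b-KO replicates 2 and 3 were left out. The median fitted difference of the 17 was 0.42 on the log2(FPKM + 1) scale, against -0.08 over all tested genes.

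Wee1, a kinase that places the inhibitory phosphate on CDK1 and is itself a 14-3-3 client, was at 0.797, 0.699 and 0.232 FPKM in WT and at 3.66, 4.01 and 3.56 FPKM in Lsm14b-KO. The groups were far apart in relation to their spread, with a log2 fold change of 1.61 (SE 0.21, limma adjusted p = 0.00328), which passed in all 16 alternatives. Wee2, the oocyte-specific relative of Wee1, was at 18.4, 20.8 and 20.7 FPKM in WT and at 17.6, 53.7 and 35.3 FPKM in Lsm14b-KO. Its low replicate 1 repeats the order seen in Ywhae and Ywhaz, and the log2 fold change of 0.67 did not pass (limma adjusted p = 0.239), but did without Lsm14b-KO replicate 1 (1.09, 0.00977). The value for Wee2 was 0.31 (limma adjusted p = 0.536) when Lsm14b-KO replicate 2 was left out, and under TPM and quantile normalization it was 1.34 (0.0983) and 1.14 (0.118). Cdc25b, the CDK1-activating phosphatase that 14-3-3 proteins hold back, was at 0.364, 0.159 and 0.617 FPKM in WT and at 1.50, 1.12 and 0.209 FPKM in Lsm14b-KO. The groups overlapped (0.44, limma adjusted p = 0.299), and the value was 0.23 without Lsm14b-KO replicate 1 (0.546), 0.70 under TPM (0.148) and 0.75 when Lsm14b-KO replicate 3 was left out (0.127). Its relatives Cdc25a and Cdc25c stayed below 1 FPKM in every library and were not tested.

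Padi6, a protein of the oocyte's cytoplasmic lattices that is known to bind 14-3-3 proteins and that also stands in the oocyte marker list, was at 50.1, 58.2 and 86.5 FPKM in WT and at 119, 224 and 184 FPKM in Lsm14b-KO. The groups did not overlap, and the log2 fold change of 1.41 (SE 0.36, limma adjusted p = 0.0304) passed in 10 of 16 alternatives. The call was lost without WT replicate 1 (1.25, limma adjusted p = 0.131), WT replicate 2 (1.35, 0.12), WT replicate 3 (1.64, 0.0629), Lsm14b-KO replicate 2 (1.21, 0.0601) or Lsm14b-KO replicate 3 (1.36, 0.1196), and with no filter (0.0644). The client Yap1, a transcriptional co-activator held in the cytoplasm by 14-3-3 binding, did not pass (0.23, limma adjusted p = 0.518). The value for Yap1 was 0.67 under TPM, 0.38 without Lsm14b-KO replicate 1 and -0.03 without Lsm14b-KO replicate 2, and it passed in none of these. Foxo3, the transcription factor that keeps primordial follicles dormant, and Bad, a promoter of cell death, were below 1 FPKM in every library.

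Of the kinases 6 of 15 were tested and none passed, with a median of 0.145 on the log2 scale. Chek1, the checkpoint kinase that phosphorylates CDC25 proteins, was named here after its values were seen because it was the most abundant of them: it was at 97.9, 95.2 and 119 FPKM in WT and at 81.9, 112 and 132 FPKM in Lsm14b-KO. Its groups overlapped (0.04, limma adjusted p = 0.925), and the value was 0.73 under TPM (0.166) and 0.66 under quantile normalization (0.191). Prkaca, the catalytic subunit of the kinase that keeps oocytes in prophase arrest, was too low to be tested, at 0.127, 0 and 0.123 FPKM in WT and at 0.191, 0.847 and 0.291 FPKM in Lsm14b-KO, and Akt1 was below 1 FPKM throughout. Of the phosphatase subunits 3 of 5 were tested and none passed in the values as deposited, with a median of 0.42. Under TPM all 3 rose, Ppp1ca by 1.18 (limma adjusted p = 0.0483), Ppp1cb by 1.01 (0.0303) and Ppp2ca by 0.97 (0.0307), beside 13.0% of all tested genes called higher and a median of all tested genes 0.475 higher than as deposited. Ppp1ca also passed after the length and GC correction (0.96, limma adjusted p = 0.0281), with the filter of 1 FPKM in 3 libraries (0.75, 0.0481) and without Lsm14b-KO replicate 1 (0.89, 0.0264). These 3 genes were named after their values were seen.

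**Figure D4:**
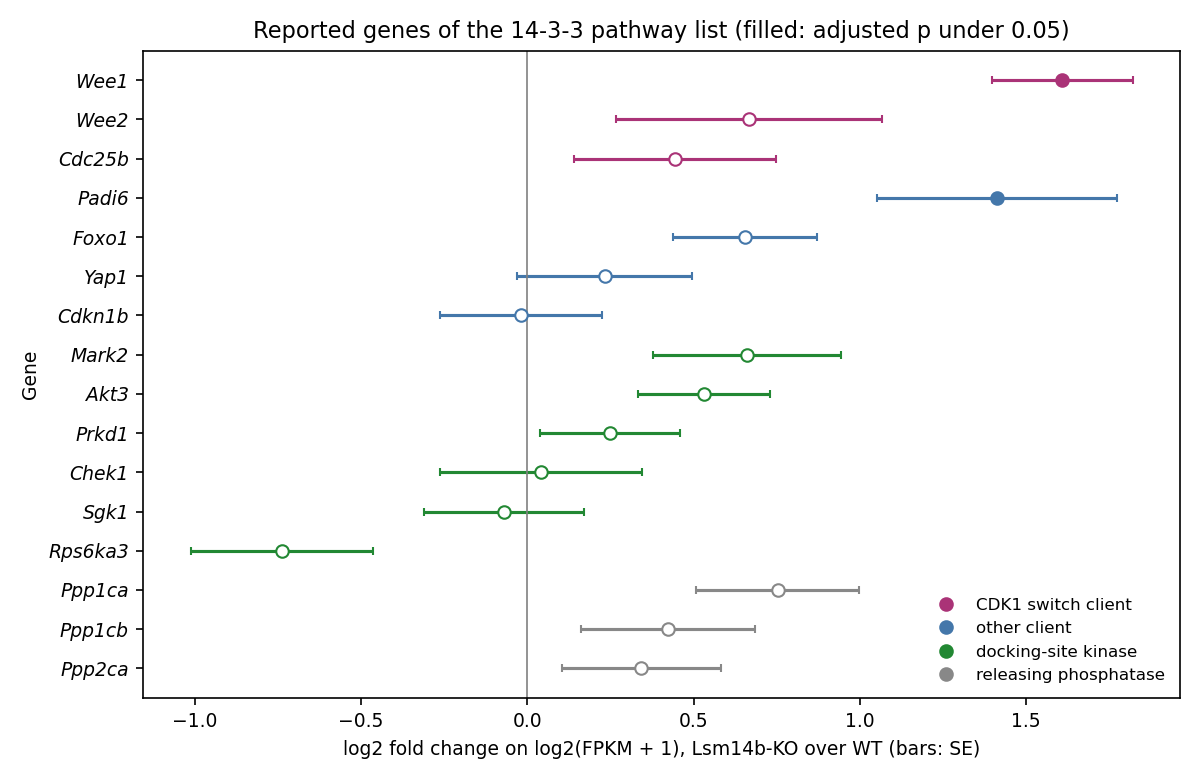
Fitted log2 fold change (Lsm14b-KO over WT, on log2(FPKM + 1)) of tested genes of the pathway list that are reported here, coloured by role, with bars for the standard error and filled circles where the limma adjusted p was under 0.05. Wee1 (1.61) and Padi6 (1.41) are the filled points.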

How the data were processed

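Transcript levels came from 6 libraries amplified by Smart-seq2, 3 WT and 3 Lsm14b-KO, grouped by the titles and genotype labels. The submitters' processing notes name TopHat2 2.0.13, Cufflinks 2.2.1, Cuffnorm, Cuffdiff and mm10. The sample labels and the series' design text name different library kits, and the annotation used is not given in the sources used here. The authors deposited FPKM per gene and library, with no counts, so no count model was fitted. Their fold change, p-value and q-value columns for the genotype comparison were not used.

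Values were analysed as log2(FPKM + 1). The 6398 genes that reached 1 FPKM in any library were fitted with limma 3.58.1 in R 4.3.3 (eBayes with trend, genotype as the only term), two-sided, with Benjamini-Hochberg adjustment over all of them and a threshold of 0.05. The fit was tested on simulated data. Single values and ratios of members were compared by exact permutation. Alternatives covered the pseudocount, the filter, the scaling, the variance model, a replicate block and leaving out each library, and the member ratios were chosen after seeing the data. Length and GC content were known for 98.8% of tested genes. Copies were sought with blastn 2.17.0, and coding sequences were aligned with Biopython 1.88, both on GENCODE vM21 transcripts. The total counts behind the FPKM are unknown, and relative depth, which reflects the divisor in the FPKM, was read from the spacing of low values.

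Genes named are the 7 members, Lsm14b, the called genes of the pathway list and up to 12 others with a known oocyte role, the 3 genes most like each tested member, and near-identical copies. Of the pathway list, 1 gene entered the fits and counts and is not reported here by name. The members and lists were chosen with earlier results of these data known.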

Additional observations from a re-analysis of the deposited data

How the results depend on the processing

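The number of members called was 1 of 6 as deposited, 2 under TPM scaling and 2 under quantile normalization, and 0 to 4 when 1 library was left out. It was 0 without any single WT library or without Lsm14b-KO replicate 3, and 4 without Lsm14b-KO replicate 1. The cause was not tested. Of 96 fits of single members under alternatives, 84 kept both direction and side of the threshold, 5 gained a call, 4 lost one and 3 changed sign. With 1 library left out, Ywhah ranged from -0.0264 (without Lsm14b-KO replicate 1) to 0.131, Ywhaq from -0.0322 (without WT replicate 1) to 0.1326, and the client Yap1 from -0.0259 (without Lsm14b-KO replicate 2) to 0.376 on the log2 scale. All tested genes called numbered 1383 (2518 at an unadjusted p under 0.05), 720 without a filter, and 315 to 2898 with 1 library left out. Pathway genes called numbered 2, 1 without a filter, 6 under TPM scaling, and 1 to 8 with 1 library left out. Ywhab had adjusted p-values from limma of 0.0386 to 0.226 over 16 alternatives, Ywhae of 0.00155 to 0.2499, Ywhag of 0.00309 to 0.0876, Ywhah of 0.0711 to 0.973, Ywhaq of 0.139 to 0.972 and Ywhaz of 0.0031 to 0.454.

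Whether replicate numbers pair the libraries is not known. Same-numbered deviations correlated at 0.19, -0.128 and 0.018, and differently numbered ones at -0.275 to 0.306. Deviations centred within 3 libraries depend on each other, so these values cannot decide it. With the replicate number as a block, 1244 genes, 1 member (Ywhag) and 2 pathway genes were called.

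With 3 libraries per group and unknown counts, a member that did not pass is not shown to be unchanged.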
